A study of Mus musculus with 40 samples.

Results

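The 10 genes described here carry glucose into the cell and through glycolysis to lactate. They are Slc2a1, Hk1, Hk2, Pfkl, Aldoa, Gapdh, Pgk1, Eno1, Pkm and Ldha, chosen by symbol from a deposited gene table of 35976 symbols. All 10 were in the table, and all 10 passed the filter on low counts in each fit.

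Glycolysis splits glucose into pyruvate and yields ATP without oxygen, and lactate dehydrogenase then turns pyruvate into lactate and returns the NAD+ that the pathway uses up. Blood stem cells live in bone marrow of low oxygen tension and are known for drawing on glycolysis more than on mitochondrial respiration, while cycling progenitors use both. The factor Hif1 induces many genes of the pathway in low oxygen and binds DNA at sites whose core is often ACGTG.

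The study asked how loss of Dnmt3a, a de novo DNA methyltransferase, and of Sting, an adaptor that links cytosolic DNA to interferon induction, changes transcription in mouse bone marrow. PolyA RNA was amplified with a modified SMART-Seq2 protocol and sequenced. Of 40 samples, 32 had a column of the gene table that could be matched to them. The 8 libraries of short-term stem cells were not analysed here.

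Dnmt3a knockout (D3aKO) is a floxed Dnmt3a allele with Mx1-Cre, per the series' design text. Cre is then driven by the interferon-inducible Mx1 promoter, which is also active outside blood cells. No source used here gives the age or sex of the mice, how Cre was induced or whether the wild-type (WT) mice carried it. Long-term haematopoietic stem cells (LT) comprised 4 D3aKO and 4 WT libraries. Common and granulocyte-macrophage progenitors, sorted together (CMP/GMP), comprised 4 D3aKO and 4 WT libraries. Megakaryocyte-erythroid progenitors (MEP) comprised 4 D3aKO and 3 WT libraries. Marrow cells positive for the receptor c-kit comprised 3 double knockout (DKO, Dnmt3a and Sting), 2 D3aKO, 2 Sting knockout (StingKO) and 2 WT libraries. The labels name no animals, so p-values measure the spread between libraries, which may be technical in part.

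The libraries held 3.44 M to 47.7 M counted reads. For the 10 genes and other metabolic genes, levels are CPM, counts scaled to library size with TMM over the 32 libraries. CPM of Dnmt3a, Xist, cell markers, cell cycle and handling stress genes were scaled to total reads alone, without TMM factors. The TMM factors ran from 0.801 (MEP D3aKO 4) to 1.15 (LT WT 4), so values on these scales are not directly comparable. Of the 320 values of the 10 genes, 3 rested on fewer than 100 reads, all of them Slc2a1. Dnmt3a itself was at 41.7 to 119 CPM in D3aKO against 77.2 to 229.5 in WT LT, and at 1.16 to 41.9 CPM in D3aKO against 29.4 to 49.5 in WT MEP. These groups overlapped, while those of CMP/GMP and c-kit+ cells did not. Markers went with the labels: 5 of 8 LT markers were called higher in LT than in CMP/GMP in D3aKO and in WT cells, and 8 of 13 erythroid markers in D3aKO and 6 of 13 in WT were called lower in LT than in MEP.

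Libraries also differed within groups. Xist was above 100 CPM in 14 of the 32, and the other 18 held transcripts of the Y chromosome. Of the 23 sorted libraries, 5 correlated less with their own population than the others, with a median r of 0.67 to 0.78 against 0.82 to 0.99 in the other 27 libraries. They were D3aKO 2 and WT 1 of LT and D3aKO 2, 3 and 4 of MEP. Those of MEP were all D3aKO, so in MEP this lower correlation is mixed with genotype. These 5 had the fewest reads of the sorted libraries, 3.44 M to 25.9 M against 28.9 M to 47.7 M, and the fewest genes with a read, 10706 to 12970 against 13425 to 15068. The pairs D3aKO 3 and 4 of MEP and WT 2 and 4 of CMP/GMP were closer to each other (r = 0.994 and 0.988) than the other 31 pairs of a sorted group, where r was 0.65 to 0.95. Both pairs still differed by more than sampling noise and were kept as separate libraries.

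Of the 10 genes, Pgk1 lies on the X chromosome and the others on autosomes (GRCm38.p6). Levels were compared between genes per kilobase of the principal transcript. On that scale Ldha, which turns pyruvate into lactate, was the highest of the 10 in each sorted group. Its mean was 718 CPM per kb in D3aKO and 728 in WT LT, 1219 in D3aKO and 1768.5 in WT CMP/GMP, and 657 in D3aKO and 1125 in WT MEP. In c-kit+ cells Pkm, the pyruvate kinase that makes pyruvate, had the highest mean in DKO (495 CPM per kb), D3aKO (376) and StingKO (520.2), and Ldha in WT (454). At the low end stood Slc2a1, a glucose transporter of many tissues, with 14.7 CPM per kb in D3aKO and 14.4 in WT LT, and Hk2, the inducible hexokinase, with 6.27 in D3aKO and 8.57 in WT CMP/GMP.

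Several of these genes have near-identical copies, so their counts depend on how reads with several matches were counted, which no source used here gives. Of the 50-base windows of the transcripts, 68.0% for Pgk1, 58.4% for Gapdh, 49.5% for Eno1 and 23.7% for Pkm also occur in other annotated genes. The share was 10.4% for Ldha, 6.57% for Aldoa and under 2% for the other genes. Values of Pgk1, Gapdh and Eno1 are uncertain on this account.

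**Figure D1:**
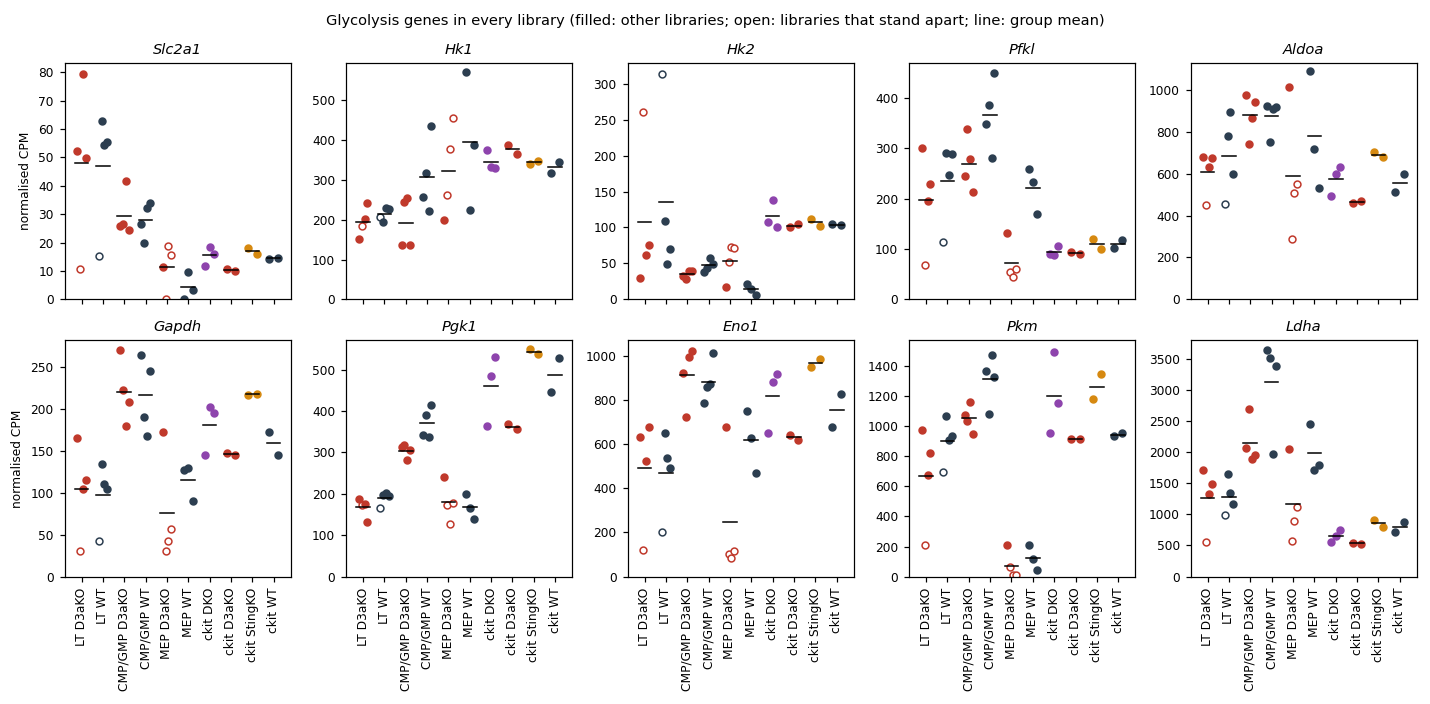
Normalised CPM (y axis, linear from 0, its own range in each panel) of the 10 genes in each library, by group (x axis). Points are libraries, open points are the 5 libraries that stand apart, and lines are group means. Pkm is lower in every MEP library than in any other library except LT D3aKO 2, and Eno1 is at 86.0 to 115 CPM in the 3 open MEP points.

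The populations were compared first, separately in D3aKO and in WT cells, which share no library. Pkm set the MEP apart in both genotypes. It was at 973, 211, 674 and 826 CPM in the D3aKO LT libraries, 1077, 1035, 1163 and 952 CPM in D3aKO CMP/GMP, and 207, 63.2, 9.66 and 8.76 CPM in D3aKO MEP. In WT cells it was at 695, 1071, 911 and 937 CPM in LT, 1367, 1085, 1478 and 1329 CPM in CMP/GMP, and 212, 118 and 41.6 CPM in MEP. Neither LT nor CMP/GMP overlapped with MEP in either genotype, although the lowest LT library, D3aKO 2, came close. In log2 units, with the SE, Pkm rose in D3aKO LT over MEP by 3.18 ± 0.69 (adjusted p = 0.00391, quasi-likelihood test of edgeR) and in D3aKO CMP/GMP over MEP by 3.86 ± 0.71 (adjusted p = 0.00232). The WT differences were 2.84 ± 0.76 (adjusted p = 0.0266) and 3.39 ± 0.78 (adjusted p = 0.0257, both edgeR). Without the 5 libraries that stand apart, the 4 log2 differences were 1.99, 2.35, 2.97 and 3.41, and all 4 were called. That leaves 1 D3aKO MEP library, so each D3aKO difference from MEP without these 5 rests on that library and on the spread of the other groups. With 1 library left out in turn, the D3aKO differences were 2.80 to 4.62 for LT over MEP and 3.49 to 5.31 for CMP/GMP over MEP, and each was called. Leaving out MEP WT 3 or 4 ended both WT calls, and leaving out CMP/GMP WT 3 or 4 ended that of CMP/GMP over MEP. The D3aKO call of LT over MEP was also lost when only those groups were fitted. The other pyruvate kinase gene, Pklr, expressed in liver and red cells, had a mean of 7.90 CPM in LT, 10.3 in CMP/GMP and 60.4 in MEP of D3aKO cells, and of 5.84, 9.60 and 147 CPM in the same populations of WT cells. Pklr was not called in any of the 6 comparisons over all libraries. Without the 5 libraries that stand apart it fell by 4.24 in WT LT against MEP (adjusted p = 0.0182) and fell by 3.93 in WT CMP/GMP against MEP (adjusted p = 0.0239, edgeR).

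Pgk1, which makes the first ATP of the pathway, was lower in LT than in CMP/GMP. Its values were 188, 172, 176 and 133 CPM in D3aKO LT and 312, 318, 281 and 306 CPM in D3aKO CMP/GMP. In WT cells they were 166, 197, 203 and 195 CPM in LT and 342, 389, 337 and 414 CPM in CMP/GMP. Each LT library was below each CMP/GMP library of its genotype. Pgk1 fell by 0.88 ± 0.22 in D3aKO cells (adjusted p = 0.0371) and by 0.97 ± 0.22 in WT cells (adjusted p = 0.0135, both edgeR). The D3aKO call was lost whenever 1 of its 8 libraries was left out, with RLE scaling and without the filter on low counts, while the WT call was lost without WT 2 or 4 of CMP/GMP. Pgk1 was low in the MEP too, at 241, 173, 128 and 178 CPM in D3aKO and 199, 165 and 139 CPM in WT. CMP/GMP exceeded MEP by 0.74 ± 0.22 in D3aKO (adjusted p = 0.0327) and by 1.13 ± 0.24 in WT (adjusted p = 0.0145, edgeR). The D3aKO difference was not called without the 5 libraries that stand apart, and it was called in 2 of the 8 fits that left out 1 library. The WT call was lost without CMP/GMP WT 4 or MEP WT 3 or 4.

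Ldha fell in WT LT against CMP/GMP by 1.28 ± 0.34 (adjusted p = 0.0316, edgeR), with 982, 1656, 1342 and 1166 CPM in LT and 3641, 3512, 1963 and 3377 CPM in CMP/GMP. The groups did not overlap. The call was lost without LT WT 1, 3 or 4 or CMP/GMP WT 1, 2 or 4, and when the close pair CMP/GMP WT 2 and 4 was summed. In D3aKO cells Ldha was at 1709, 557, 1321 and 1487 CPM in LT and 2069, 2694, 1893 and 1954 CPM in CMP/GMP, a log2 difference of -0.78 ± 0.33 that was not called (adjusted p = 0.203, edgeR). These groups did not overlap either.

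Hk2 ran the other way. It was at 314, 109, 48.9 and 70.6 CPM in WT LT, 38.5, 43.7, 57.1 and 49.7 CPM in WT CMP/GMP, and 20.7, 14.6 and 5.82 CPM in WT MEP. LT exceeded MEP by 3.29 ± 0.72 in WT (adjusted p = 0.0075, edgeR), and the call was lost without MEP WT 4. The highest LT library is 1 of the 5 that stand apart, and without them the WT difference was 2.47 ± 0.43 (adjusted p = 0.000478, edgeR). In D3aKO cells Hk2 was at 30.2, 260.1, 62.3 and 75.3 CPM in LT and 16.6, 51.7, 72.6 and 71.9 CPM in MEP. These groups overlapped (log2 0.97 ± 0.59, adjusted p = 0.253, edgeR). Hk1, the hexokinase of most resting tissues, was not called by edgeR between any of the populations over all libraries. Its log2 difference in D3aKO was -0.77 ± 0.31 for LT over MEP (adjusted p = 0.0971) and -0.77 ± 0.31 for CMP/GMP over MEP (adjusted p = 0.111, both edgeR). Both were called by limma-voom, which called 8459 and 10116 of 16136 genes there, and by edgeR without MEP D3aKO 1.

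Pfkl, a subunit of phosphofructokinase, Gapdh, the oxidising step, and Eno1, the enolase, were called in D3aKO cells. Pfkl was at 299.95, 67.2, 195 and 229.9 CPM in LT, 245, 339, 279.7 and 214 CPM in CMP/GMP and 131, 54.7, 44.6 and 59.6 CPM in MEP of D3aKO. It rose in LT over MEP by 1.41 ± 0.38 (adjusted p = 0.0177) and in CMP/GMP over MEP by 1.87 ± 0.39 (adjusted p = 0.00528). Gapdh rose in CMP/GMP over MEP by 1.52 ± 0.47 (adjusted p = 0.0394) and Eno1 by 1.88 ± 0.53 (adjusted p = 0.0277, all by edgeR). In each of these genes the 3 MEP libraries that stand apart were the low ones, and none of these 4 differences was called without the 5 libraries, where 1 D3aKO MEP library is left. With 1 library left out in turn, Pfkl was called in 8 of 8 fits for CMP/GMP over MEP and in 5 of 8 for LT over MEP, Eno1 in 2 of 8 and Gapdh in 1 of 8. The WT differences of CMP/GMP over MEP were 0.71 ± 0.41 for Pfkl, 0.89 ± 0.50 for Gapdh and 0.50 ± 0.56 for Eno1, and none was called by edgeR. limma-voom called all 3, where it called 3825 of 16136 genes. Without the 5 libraries that stand apart, Pfkl at 0.73 (adjusted p = 0.042) and Gapdh at 0.91 (adjusted p = 0.0148, edgeR) were called in WT. In that fit Gapdh also fell by 0.78 in D3aKO LT against CMP/GMP (adjusted p = 0.0431) and fell by 0.90 in WT (adjusted p = 0.0112, edgeR), and Eno1 fell by 0.65 in WT (adjusted p = 0.0234, edgeR). Whether these D3aKO and WT differences differ was tested only within the F-test over the 3 populations.

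Counted over the 10 genes, 1 was called lower in D3aKO LT against CMP/GMP and 2 in WT, where 0.818% and 1.7% of all 16136 genes tested were called lower and 1.67% and 3.56% in either direction. LT against MEP gave 2 higher in D3aKO and 2 in WT, against 7.23% and 3.41% of all genes called higher (13% and 5.99% in either direction). CMP/GMP against MEP gave 5 higher in D3aKO and 2 in WT, against 4.66% and 0.861% of all genes called higher (10.2% and 1.41% in either direction). The median log2 difference of the 10 genes was -0.61 in D3aKO and -0.60 in WT for LT over CMP/GMP, where that of all genes was 0.10 and 0.11. For CMP/GMP over MEP it was 1.10 in D3aKO and 0.80 in WT, where that of all genes was 0.19 and 0.04. For LT over MEP it was 0.69 in D3aKO and -0.07 in WT, where that of all genes was 0.19 in both. The median for LT over MEP was -0.07 in D3aKO and 0.12 in WT without the 5 libraries that stand apart. RLE scaling moved the all-gene median of LT over CMP/GMP to 0.19 in D3aKO and 0.22 in WT, and that of LT over MEP to 0.26 and 0.30. With RLE, the sign of Hk1 in D3aKO LT over CMP/GMP turned and the signs of the other genes stayed.

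Marker lists moved with these comparisons. Granulocytic markers summed to 402 to 521 CPM in D3aKO LT against 9049 to 22118 in D3aKO CMP/GMP, and to 376 to 3369 CPM in WT LT against 6145 to 31491 in WT CMP/GMP. Ltf, which neutrophils make late, was at 0 in D3aKO LT and in CMP/GMP of both genotypes. Cell cycle genes summed to 2688 to 3880 CPM in D3aKO LT against 4034 to 4868 in CMP/GMP, and to 1634 to 3178 against 4725 to 6070 CPM in WT, with 1 of 11 called lower in D3aKO and 6 of 11 in WT. Handling stress genes such as Fos and Jun summed to 9583 to 18062 CPM in D3aKO LT against 3092 to 8536 in CMP/GMP, and to 5181 to 22726 CPM in WT LT against 3209 to 8191 in CMP/GMP, and 2 of 10 were called higher in each genotype. The part of these differences in the glycolysis values was not tested. In bulk samples fewer cells of a type and less RNA per cell cannot be told apart.

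**Figure D2:**
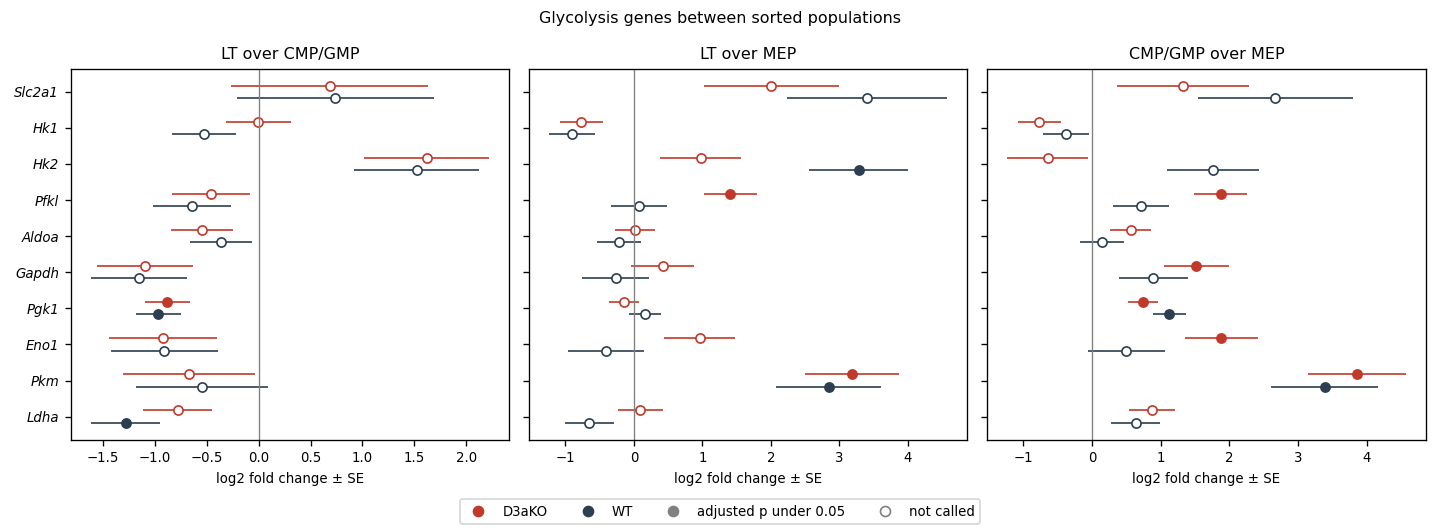
Log2 fold change with its SE (x axis) of the 10 genes (y axis) between sorted populations, in D3aKO cells (red, upper point of each pair) and WT cells (dark, lower point). Filled points have an adjusted p under 0.05. Pkm is filled in both comparisons with MEP in both genotypes, and Pgk1 in LT over CMP/GMP and CMP/GMP over MEP in both.

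The promoters of 4 genes are shown because they stand for the patterns above: Ldha and Pgk1, lower in LT than in CMP/GMP, Hk2, higher in WT LT than in MEP, and Pkm, higher in LT and CMP/GMP than in MEP. Each runs from 250 bases before to 50 bases after a transcript start of the RefSeq table (GRCm38.p6), on the gene's strand. All 10 genes matched a window. Capitals mark ACGTG, a core of the Hif1 site, or its reverse complement CACGT, and CACGTG where both overlap. Other forms of the core were not searched.
Ldha: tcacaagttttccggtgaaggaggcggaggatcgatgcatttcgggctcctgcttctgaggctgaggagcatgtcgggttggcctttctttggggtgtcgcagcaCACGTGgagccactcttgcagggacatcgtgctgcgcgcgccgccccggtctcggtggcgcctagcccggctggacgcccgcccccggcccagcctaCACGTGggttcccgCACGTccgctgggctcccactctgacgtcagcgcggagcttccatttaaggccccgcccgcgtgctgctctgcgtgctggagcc
Pgk1: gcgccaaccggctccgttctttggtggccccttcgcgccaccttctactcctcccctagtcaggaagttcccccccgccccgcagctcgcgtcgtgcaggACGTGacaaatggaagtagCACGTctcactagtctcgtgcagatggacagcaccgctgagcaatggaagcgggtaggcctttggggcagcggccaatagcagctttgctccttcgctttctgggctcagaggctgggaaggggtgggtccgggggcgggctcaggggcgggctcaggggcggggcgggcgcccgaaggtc
Hk2: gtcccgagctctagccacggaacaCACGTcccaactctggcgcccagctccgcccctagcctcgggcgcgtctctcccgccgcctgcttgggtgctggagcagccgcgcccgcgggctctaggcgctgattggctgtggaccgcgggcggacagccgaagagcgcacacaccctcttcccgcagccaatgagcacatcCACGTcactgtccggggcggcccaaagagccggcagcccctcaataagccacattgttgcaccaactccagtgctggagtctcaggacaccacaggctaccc
Pkm: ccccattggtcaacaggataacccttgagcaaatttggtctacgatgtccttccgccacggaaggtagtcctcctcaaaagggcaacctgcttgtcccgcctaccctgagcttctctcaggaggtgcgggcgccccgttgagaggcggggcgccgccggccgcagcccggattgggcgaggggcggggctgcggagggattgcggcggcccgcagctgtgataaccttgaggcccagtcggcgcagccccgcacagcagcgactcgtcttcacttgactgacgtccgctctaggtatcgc
The Ldha window, at chr7:46845554-46845853 on the plus strand, held the letters at 3 places, of which 2 were CACGTG. The Pgk1 window (chrX:106186850-106187149, plus strand) and the Hk2 window (chr6:82774405-82774704, minus strand) held them at 2 places each. The Pkm window (chr9:59656326-59656625, plus strand) did not hold them. Over the 10 genes, 5 windows held ACGTG on either strand, with Slc2a1 and Gapdh at 1 place each, where 19.6% of 32851 promoter windows of the same length did. CACGTG, part of these matches, was in 1 of the 10 against 7.15% of all windows. GGGCGG, the core of the GC box, was on either strand in 6 of the 10 against 35.7% of all. Of the 5 genes with ACGTG, Ldha and Pgk1 were called lower in WT LT than in CMP/GMP over all libraries. Gapdh (-1.16 ± 0.46), Slc2a1 (0.74 ± 0.95) and Hk2 (1.52 ± 0.60) were not called there. Their adjusted p-values were 0.156, 0.729 and 0.151 by edgeR. Whether the motif goes with the direction was not tested.

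Other genes of carbon metabolism were taken from lists chosen with earlier results of these data known. Of 15 tested isozymes and other steps of glycolysis, 1 was higher and 2 were lower in D3aKO LT than in CMP/GMP, and 1 was higher and 1 lower in WT, where 1.67% and 3.56% of all genes were called. Slc2a3, a high-affinity glucose transporter, rose by 1.87 ± 0.41 in D3aKO (adjusted p = 0.0214) and by 1.96 ± 0.41 in WT (adjusted p = 0.00959). Gpi1, the isomerase between hexokinase and phosphofructokinase, fell by 0.98 ± 0.23 in D3aKO (adjusted p = 0.0278) and by 0.99 ± 0.23 in WT (adjusted p = 0.0151, edgeR). Pgam1, the mutase before enolase, fell by 2.37 ± 0.60 in D3aKO (adjusted p = 0.0419). It was higher in CMP/GMP than in MEP by 3.01 ± 0.62 in D3aKO (adjusted p = 0.00489) and by 2.81 ± 0.69 in WT (adjusted p = 0.0342, edgeR). Pfkp, the platelet phosphofructokinase, was higher in LT than in MEP by 1.12 ± 0.31 in D3aKO (adjusted p = 0.0182) and by 1.72 ± 0.35 in WT (adjusted p = 0.00388, edgeR). The list's median for LT over CMP/GMP was 0.74 in D3aKO and 0.01 in WT.

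Of 17 genes of the TCA cycle, 3 were lower in D3aKO LT than in MEP and 6 in WT, and none was higher, where 13% and 5.99% of all genes were called in either direction. Without the 5 libraries that stand apart the counts were 5 and 13, where 5.14% and 14.6% of all genes were called. Cs, the citrate synthase that opens the cycle, fell by 1.15 ± 0.22 in D3aKO (adjusted p = 0.00151) and by 1.15 ± 0.23 in WT (adjusted p = 0.00401, edgeR). Against CMP/GMP, edgeR called 0 of 17 in D3aKO LT, where 13 had an unadjusted p under 0.05, DESeq2 called 4 lower and limma-voom 7. In WT LT it called 3 lower, among them Dlst, which fell by 1.52 ± 0.32 (adjusted p = 0.00982, edgeR), where DESeq2 called 4 and limma-voom 11. With the 5 libraries left out, edgeR called 7 lower in D3aKO and 10 in WT, against 5.85% and 11.1% of all genes called. Of 17 regulators of hypoxia and glycolysis, 3 were higher in LT than in MEP in each genotype, where 7.23% of all genes in D3aKO and 3.41% in WT were called higher. The counts were 3 in D3aKO and 5 in WT with the 5 libraries left out. Meis1, a stem cell transcription factor, rose by 2.87 ± 0.47 in D3aKO (adjusted p = 0.000412) and by 2.79 ± 0.53 in WT (adjusted p = 0.00213, edgeR). Hif1a rose by 1.68 ± 0.49 in WT (adjusted p = 0.0423, edgeR). Txnip, which holds back glucose uptake, was higher in LT than in CMP/GMP by 1.59 ± 0.31 in D3aKO (adjusted p = 0.00888) and by 1.73 ± 0.31 in WT (adjusted p = 0.00338, edgeR). Of 12 tested hypoxia targets, 2 were higher in D3aKO LT than in CMP/GMP and 1 in WT, where 1.67% and 3.56% of all genes were called. Against MEP, 4 were higher and 2 lower in D3aKO LT and 2 higher in WT LT, where 13% and 5.99% of all genes were called. Bhlhe40, a transcriptional repressor, was higher in LT than in CMP/GMP by 4.18 ± 0.97 in D3aKO (adjusted p = 0.0282) and by 3.39 ± 0.94 in WT (adjusted p = 0.0434, edgeR). Of 8 genes of the pentose phosphate branch, 2 were lower in D3aKO LT than in CMP/GMP, and 1 was higher and 1 lower in WT. Of all genes, 1.67% in D3aKO and 3.56% in WT were called in either direction. Taldo1 fell by 1.47 ± 0.38 in D3aKO LT against CMP/GMP (adjusted p = 0.048) and fell by 1.39 ± 0.38 in WT (adjusted p = 0.0413, edgeR). Pgls rose by 1.96 ± 0.47 in WT LT against CMP/GMP (adjusted p = 0.0196, edgeR). Without the 5 libraries that stand apart, each of the genes named here for LT against CMP/GMP was still called in the same genotypes and direction. Meis1 and Cs in LT over MEP, Hif1a and Pfkp in WT LT over MEP and Pgam1 in CMP/GMP over MEP were also still called, while Pfkp in D3aKO LT over MEP, at 1.02, was not (adjusted p = 0.209, edgeR).

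Within each population, D3aKO was then compared with WT. None of the 10 genes was called in LT, CMP/GMP or MEP by edgeR, where 0% of the 12800, 13205 and 12323 genes tested were called. An unadjusted p under 0.05 was found for 0 of the 10 in LT, 4 in CMP/GMP and 2 in MEP. DESeq2 called 0, 0 and 1 of the 10, where it called 7, 160 and 561 of all genes. limma-voom with quality weights called 0, 0 and 7 of the 10, where it called 0, 475 and 7800 of all genes. The tests could miss large changes: of 200 genes changed 4-fold in simulated counts of these libraries, edgeR recovered 35 in LT, 148 in CMP/GMP and 0 in MEP.

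In LT the log2 differences of D3aKO over WT ran from -0.43 ± 0.39 for Pkm to 0.10 ± 0.49 for Gapdh, with a median of -0.14 against 0.00 for all genes. Each of the 10 genes overlapped between the groups. Ldha was at 1709, 557, 1321 and 1487 CPM in D3aKO and 982, 1656, 1342 and 1166 CPM in WT, a difference of -0.02 ± 0.33. Without the 2 libraries that stand apart the range was -0.44 for Hk2 to 0.15 for Gapdh, and none was called.

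In CMP/GMP 6 of the 10 values were negative, with a median of -0.29 against 0.01 for all genes. Ldha was at 2069, 2694, 1893 and 1954 CPM in D3aKO and 3641, 3512, 1963 and 3377 CPM in WT, a log2 difference of -0.52 ± 0.19 (adjusted p = 0.467, edgeR). The groups overlapped at 1 WT library, WT 3, which was the Xist library of its group. In WT 3, granulocytic markers summed to 31491 CPM against 6145 to 8580 in the other WT libraries, and monocyte and macrophage markers to 1628 CPM against 120 to 147. The part of either in Ldha was not tested. Among Xist libraries, Ldha was at 1893 and 1954 CPM in D3aKO and 1963 CPM in WT, and among Y libraries at 2069 and 2694 CPM in D3aKO and 3377 to 3641 CPM in WT. Pgk1, at 281 to 318 CPM in D3aKO and 337 to 414 CPM in WT, was the 1 gene of the 10 whose groups did not overlap, as they did not for 5.63% of all genes (log2 -0.27 ± 0.13, adjusted p = 0.584, edgeR). The values of Hk1 (-0.66 ± 0.27), Pfkl (-0.43 ± 0.19) and Pkm (-0.30 ± 0.13) had adjusted p-values of 0.499, 0.533 and 0.542 by edgeR.

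In MEP the D3aKO libraries split. Eno1 was at 677, 104, 86.0 and 115 CPM in D3aKO and 752, 626 and 471 CPM in WT. Pfkl was at 131, 54.7, 44.6 and 59.6 CPM in D3aKO and 259.1, 232 and 170.0 CPM in WT. Ldha was at 2055, 571, 900 and 1112 CPM in D3aKO and 2448, 1713 and 1797 CPM in WT. D3aKO 1 sat with the WT libraries or near them, and D3aKO 2, 3 and 4, the libraries that stand apart, were low. Over all 7 libraries the log2 differences were -1.35 ± 0.69 for Eno1 (adjusted p = 0.435), -1.62 ± 0.43 for Pfkl (adjusted p = 0.315) and -0.80 ± 0.41 for Ldha (adjusted p = 0.436, edgeR). Without D3aKO 1 edgeR called 5 of the 10: Eno1 (-2.62), Pfkl (-2.07), Gapdh (-1.43) and Ldha (-1.23) lower and Hk2 (2.24) higher. That fit called 2882 of the 11880 genes tested. Without D3aKO 2, 3 and 4, which leaves 1 D3aKO library assumed to vary like the WT ones, Eno1 was at 0.12 ± 0.30, Ldha at 0.03 ± 0.25 and Pfkl at -0.76 ± 0.34, and none was called. The median of the 10 was then 0.31 with 8 positive values, against -0.53 with 3 positive values over all 7 libraries.

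The same genes set apart the 2 LT libraries, of which 1 is D3aKO and 1 is WT. In LT D3aKO 2 and WT 1, Eno1 was at 122 and 203 CPM against 492 to 678 in the other 6. Gapdh was at 30.9 and 42.3 CPM against 104 to 165, and Pfkl at 67.2 and 115 CPM against 195 to 299.95. Hk2 was at 260.1 and 314 CPM against 30.2 to 109. In LT 6 of the 10 genes were lower and 1 was higher in both libraries than in any of the other 6, and in MEP 4 were lower and 1 was higher in all 3 than in any of the other 4. Over all genes of at least 5 CPM, 19.3% were lower and 16.5% higher in the LT libraries, and 24.7% lower and 21.2% higher in the MEP libraries. Pfkl, Gapdh, Eno1 and Ldha were on the low side and Hk2 on the high side in both populations, while Hk1 and Pgk1 overlapped in both. Fewer reads and genes went with these libraries, as given above, and the part of either in the values was not tested. In LT D3aKO 2 and WT 1, monocyte and macrophage markers summed to 195 and 474 CPM against 18.9 to 37.6 in the other 6. B cell markers summed to 3.78 and 5.23 CPM against 38.9 to 56.7, and handling stress genes to 9583 and 5181 CPM against 11938 to 22726. In MEP, erythroid markers summed to 7871 to 11076 CPM in D3aKO and 12259 to 16488 in WT, and monocyte and macrophage markers to 12.9 to 191 CPM in D3aKO and 1.11 to 7.84 in WT. Their part was not tested.

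Slc2a1 had a mean of 11.5 CPM in D3aKO and 4.34 in WT MEP, and of 10.3 (D3aKO) to 16.9 (StingKO) in the c-kit+ groups. LT exceeded MEP by 3.41 ± 1.17 in WT (adjusted p = 0.0847) and by 2.01 ± 0.98 in D3aKO (adjusted p = 0.155, both edgeR). Neither was called over all libraries, nor was CMP/GMP over MEP. limma-voom called both LT differences. DESeq2, and edgeR without the 5 libraries that stand apart, called that of WT. The values were 11.4, 0, 18.8 and 15.6 CPM in D3aKO MEP and 0, 9.75 and 3.29 CPM in WT MEP. A count of 0 allows up to 0.872 CPM in the D3aKO library and 0.0941 CPM in the WT library (3 reads, counting error only). These limits were scaled to total reads, without the TMM factor.

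**Figure D3:**
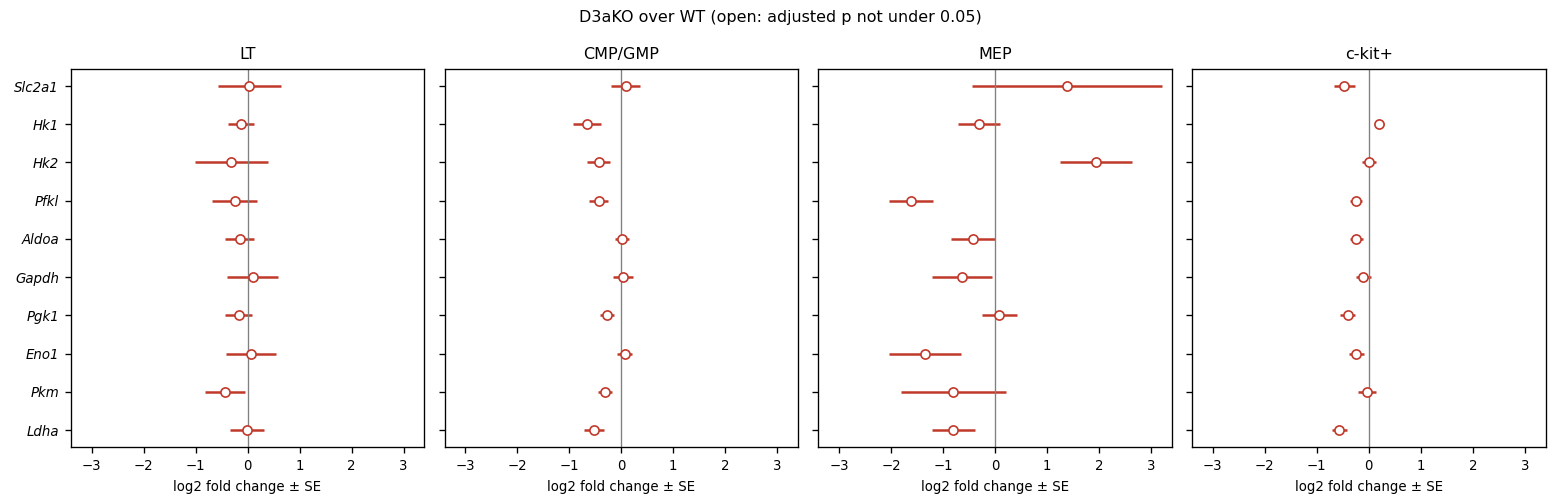
Log2 fold change of D3aKO over WT with its SE (x axis) for the 10 genes (y axis) in LT, CMP/GMP, MEP and c-kit+ cells. All points are open, since none had an adjusted p under 0.05. The bars are widest in MEP, where Hk2 stands at 1.94 and Pfkl at -1.62.

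Whether the effect of Dnmt3a loss differed between LT, CMP/GMP and MEP was tested with an F-test in edgeR over the 23 sorted libraries. None of the 10 genes was called, where 0.0186% of 16136 genes were, and 1 had an unadjusted p under 0.05. DESeq2 called 0 of the 10, where it called 130 of all genes, and limma-voom 5 of the 10, where it called 4106 of all genes. Without MEP D3aKO 1, edgeR called Eno1.

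In c-kit+ cells 0 of the 10 genes were called by edgeR in the comparisons of DKO, D3aKO and StingKO with WT and of DKO with D3aKO and StingKO. D3aKO, StingKO and DKO were each set against the same 2 WT libraries, so these comparisons are not independent. Background was 1.26% of 16026 genes called for DKO over WT, 0.568% for D3aKO over WT and 0.774% for StingKO over WT. It was 0.156% for DKO over D3aKO and 0% for DKO over StingKO. An unadjusted p under 0.05 was found for 2, 4 and 4 of the 10 in the comparisons of DKO, D3aKO and StingKO with WT, for 5 in DKO over D3aKO and for 2 in DKO over StingKO. DESeq2 and limma-voom each called Ldha in D3aKO over WT and no other gene of the 10. In simulated counts with DKO set against D3aKO, edgeR recovered 198 of 200 genes changed 4-fold. The comparisons with WT and smaller changes, such as those of the 10 genes, were not simulated.

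Of the 10 genes, Ldha differed most in D3aKO over WT. It was at 550.0, 647 and 753 CPM in DKO, 540 and 531 CPM in D3aKO, 915 and 799 CPM in StingKO, and 723 and 880.1 CPM in WT. D3aKO lay below WT and DKO below StingKO with no overlap. The log2 difference was -0.56 ± 0.14 for D3aKO over WT (adjusted p = 0.116), -0.38 ± 0.13 for DKO over StingKO (adjusted p = 0.378) and -0.30 ± 0.13 for DKO over WT (adjusted p = 0.282, edgeR). Pgk1 was at 365, 484 and 531 CPM in DKO, 368 and 357 CPM in D3aKO, 549.9 and 537 CPM in StingKO, and 447 and 527 CPM in WT. DKO 1 sat with the D3aKO libraries and the other DKO libraries sat with WT. Slc2a1 was at 11.7, 18.5 and 16.01 CPM in DKO, 10.7 and 9.84 CPM in D3aKO, 18.0 and 15.9 CPM in StingKO, and 14.3 and 14.5 CPM in WT. DKO 1 was again nearer to the D3aKO libraries than the other DKO libraries were.

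Of the 10 genes, 9 had negative values in D3aKO over WT and 8 had groups that did not overlap, as did 53.9% of all genes with these 2 libraries a group. Their median was -0.24 against 0.00 for all genes. In StingKO over WT 9 were positive, with a median of 0.18 against 0.00. The values there were 0.44 ± 0.15 for Gapdh, 0.41 ± 0.17 for Pkm, 0.35 ± 0.15 for Eno1 and 0.30 ± 0.12 for Aldoa, with adjusted p from 0.286 to 0.413 by edgeR. Monocyte and macrophage markers summed to 885 to 934 CPM in StingKO and 1632 to 1818 in WT, with 4 of 9 called lower. Vcam1 had a mean of 185 CPM against 559, and Ly6c2 of 493 against 520. Basophil, mast cell and eosinophil markers summed to 1687 to 2055 CPM in StingKO and 3980 to 4335 in WT, with 1 of 6 called lower. Prg2 and Epx had means of 1190 and 467 CPM in StingKO and 2854 and 1078 in WT. Mcpt8, Cpa3, Prss34 and Ms4a2 were at 46.1, 42.65, 80.6 and 44.0 CPM in StingKO and 52.6, 42.55, 88.0 and 42.8 in WT. The part of these markers was not tested. DKO over WT had 7 positive values and a median of 0.09, and DKO over D3aKO 9 and a median of 0.30. DKO over StingKO had 8 negative values and a median of -0.21 against 0.02 for all genes. The interaction, DKO over StingKO minus D3aKO over WT, was not called for any of the 10 in edgeR (0.15% of all genes were). Unadjusted p was under 0.05 for 0 of them, DESeq2 and limma-voom called 0, and the values ran from -0.18 ± 0.11 for Hk1 to 0.36 ± 0.27 for Slc2a1.

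The 2 D3aKO libraries and DKO 1 were the Xist libraries of the c-kit+ cells, and the other 6 were Y libraries. Genotype and Xist or Y status therefore cannot be told apart in D3aKO over WT by these libraries alone. The comparisons of DKO with D3aKO, StingKO and WT also mix genotype with that status in part. Slc2a1, Aldoa, Pgk1, Eno1 and Ldha were lower in all 3 Xist libraries than in any Y library, and Hk1 was higher. Over 10277 genes, 6.85% were lower and 6.24% higher in all 3. Hk1 was at 375, 388 and 366 CPM in the Xist libraries and 317 to 348 CPM in the Y libraries. With a term for Xist or Y status, which only the DKO group can inform, the median of D3aKO over WT was 0.09 with 8 positive values, and Ldha was at -0.21 ± 0.17 (adjusted p = 0.812, edgeR). The median of DKO over D3aKO was then 0.03 with 6 positive values, against 0.30 with 9 without the term. That of DKO over StingKO was -0.08 with the term, against -0.21 without it. Monocyte and macrophage markers summed to 1169 to 1253 CPM in D3aKO and 1632 to 1818 in WT, with 2 of 9 called lower. Among them Vcam1 had a mean of 314 CPM against 559, while only Ly6c2 was higher in D3aKO (609 against 520). Basophil, mast cell and eosinophil markers summed to 1397 to 1837 CPM in D3aKO and 3980 to 4335 in WT, with 2 of 6 called lower. Prg2 and Epx had means of 1026 and 434 CPM in D3aKO and 2854 and 1078 in WT. Mcpt8, Cpa3, Prss34 and Ms4a2 were at 44.3, 30.9, 44.0 and 38.3 CPM in D3aKO and 52.6, 42.55, 88.0 and 42.8 in WT. The part of these markers was not tested.

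In the sorted libraries that do not stand apart, Ldha was at 1166 to 1487 CPM in 4 Xist libraries and 1656 to 1709 CPM in 2 Y libraries of LT. In CMP/GMP it was at 1893 to 1963 CPM in 3 Xist and 2069 to 3641 CPM in 5 Y libraries, and in the MEP 1713 to 1797 CPM in 2 Xist and 2055 to 2448 CPM in 2 Y libraries. The Y libraries that stand apart lay below these Xist libraries, LT D3aKO 2 and WT 1 at 557 and 982 CPM and MEP D3aKO 2 at 571 CPM. In CMP/GMP, granulocytic markers summed to 21981 to 31491 CPM in the Xist libraries and 6145 to 16986 CPM in the Y libraries. Monocyte and macrophage markers summed to 769 to 1628 CPM in Xist and 120 to 278 CPM in Y libraries. The part of these markers in Ldha was not tested. Of the other genes that split by Xist in c-kit+ cells, Slc2a1 overlapped between Xist and Y libraries in each sorted population. Aldoa, Pgk1 and Eno1 overlapped in LT and CMP/GMP and were lower in the Xist libraries of MEP. Hk1 was higher in the Xist libraries of LT and overlapped in CMP/GMP and MEP.

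**Figure D4:**
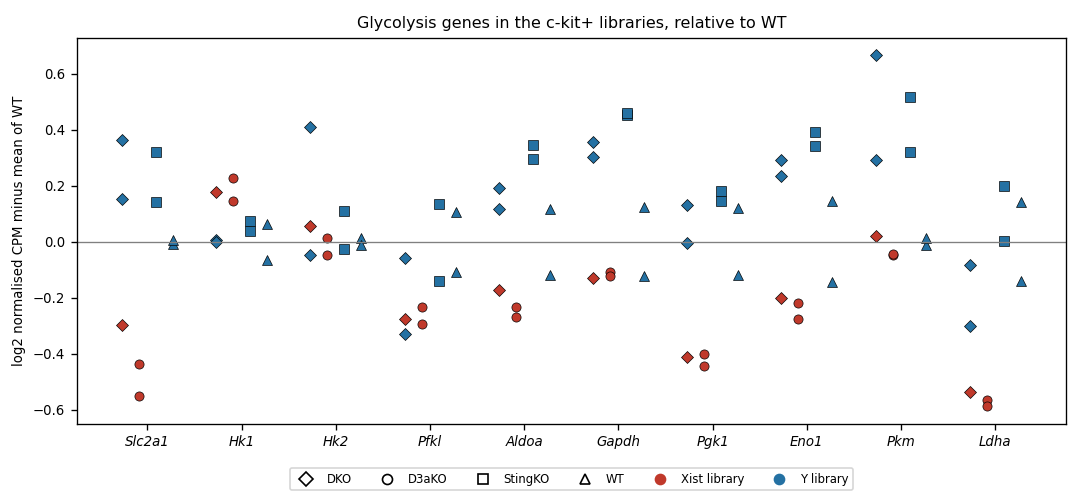
Log2 normalised CPM minus the mean of the 2 WT libraries (y axis) for the 10 genes (x axis) in the 9 c-kit+ libraries. Symbols mark genotype, red marks Xist libraries and blue Y libraries. The red points of Ldha lie between -0.59 and -0.54, below all blue points of that gene.

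In c-kit+ cells Hk3, a hexokinase of granulocytes, was the single gene called in the 6 lists of carbon metabolism and its regulators, in DKO over WT at 0.69 ± 0.14 (adjusted p = 0.0477, edgeR). Its mean was 472 ± 83.7 CPM in DKO (SD, n = 3) and 293 ± 19.3 CPM in WT (SD, n = 2). Granulocytic markers summed to 25380 to 46846 CPM in DKO and 18550 to 22663 in WT, and the part of that in Hk3 was not tested.

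Genes whose log2 levels went most closely with each of the 10 over the 23 sorted libraries are given as a description, since the libraries share populations and depth. The closest to Pkm was Coro1a (r = 0.972, and 0.957 over the 18 libraries that do not stand apart), an actin-binding protein of leukocytes. The closest to Pgk1 was Gpi1 (r = 0.88 and 0.868). The closest to Hk2 was Etv6 (r = 0.926 and 0.893), a transcription factor of blood stem cells, and to Slc2a1 it was Cyp4f16 (r = 0.957 and 0.949). Eno1 went with its near-identical copy Eno1b (r = 0.988 and 0.948), which held 0.293% to 5.31% of the reads of Eno1, so shared reads could give this value. For Pfkl, Aldoa and Ldha the closest genes were Trmt2a (r = 0.948), Pfn1 (r = 0.892) and Wbscr22 (r = 0.919), and r was 0.672, 0.666 and 0.782 without the 5 libraries that stand apart.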

How the data were processed

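Read counts per gene symbol were deposited by the authors as raw counts. The submitters' processing notes name Trim Galore 0.6.7 and HISAT2 with mm10, then featureCounts 2.0.1 for counting, and DESeq2 1.34.0. No source used here gives the annotation, the strand setting or the treatment of reads with several matches. Of 40 columns, 8 carry repeated names of short-term stem cell WT libraries and were left out. The deposited transposable element table was not used.

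In R 4.3.3, edgeR 4.0.16 (TMM, filterByExpr with a minimum count of 10 and a minimum total of 15, quasi-likelihood test) was fitted on all genes, with Benjamini-Hochberg adjustment and calls at an adjusted p under 0.05. Each population was fitted alone for genotype, the 9 c-kit+ libraries together, and the 23 sorted libraries together for populations. SE is the log2 fold change over the root of F. CPM used a prior count of 2 for correlations alone. Scripts were tested on simulated data. Alternatives were RLE, no filter, DESeq2 1.42.0, limma 3.58.1 voom, a replicate block, only the groups compared, and each library left out. A term for Xist, the 5 libraries left out, the closest pairs summed and Y libraries alone were added after seeing the data. Libraries stand apart at a median r under 0.8 over genes of at least 5 CPM.

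The 10 genes and all lists were chosen with earlier results of these data known. The 10 are always named. From each pathway list up to 4 called genes per comparison, of at least 5 CPM and with the largest change, could be named. Pklr was chosen after its values were seen. Gene positions and promoters are from RefSeq (GRCm38.p6), and transcript lengths from GENCODE. Depth sets the precision: 1 read weighs more in a library of 3.44 M reads than in 1 of 47.7 M. Replicate numbers were not taken as pairs, since same-numbered libraries had correlations of their deviations from -0.32 to 0.18 between genotypes and from -0.11 to 0.48 between populations, and in no pair of groups of 3 or more numbers was each above 0.1. In D3aKO sorted cells the numbers share Xist or Y status.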

Additional observations from a re-analysis of the deposited data

Results flagged for a closer look

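In groups of 4 libraries, 4 of 50 sets of values had 1 library far from the other 3, by a gap to the nearest above Dixon's critical share of the range, and chance flags about 1 in 20 groups. Slc2a1 was at 41.5 CPM in CMP/GMP D3aKO 3 against 24.3 to 26.4 in the other 3. Aldoa was at 751 CPM in CMP/GMP WT 2 against 911 to 923. Ldha was at 1960 CPM in CMP/GMP WT 3 against 3380 to 3640. Eno1 was at 677 CPM in MEP D3aKO 1 against 86 to 115 in the 3 libraries that stand apart.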

How the results depend on the processing

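Values here are numbers of the 10 genes called. RLE gave 0 for LT over CMP/GMP in D3aKO (1 by TMM). Without the filter on low counts the numbers were 2 for c-kit+ DKO over WT, 2 for D3aKO over WT, 3 for StingKO over WT, 3 for DKO over D3aKO, 1 for DKO over StingKO (all 0 with the filter) and 0 for LT over CMP/GMP in D3aKO. DESeq2 gave 1 for D3aKO over WT in MEP, 1 in c-kit+ cells and 2 for LT over CMP/GMP in D3aKO. limma-voom gave 7 for D3aKO over WT in MEP, 1 in c-kit+ cells and 5 for the F-test. It gave 2, 6 and 9 for LT over CMP/GMP, LT over MEP and CMP/GMP over MEP in D3aKO, and 4 and 8 for LT over CMP/GMP and CMP/GMP over MEP in WT. Of all 16136 genes limma-voom called 1666, 8459 and 10116 in these D3aKO comparisons, and 3911 and 3825 in these WT comparisons. With only the groups compared the numbers were 2 for c-kit+ D3aKO over WT, 0 and 2 for LT over MEP and CMP/GMP over MEP in D3aKO, and 4 for CMP/GMP over MEP in WT. Without the 5 libraries that stand apart they were 2, 1 and 1 in D3aKO, for LT over CMP/GMP, LT over MEP and CMP/GMP over MEP, and 4 and 6 for LT over CMP/GMP and CMP/GMP over MEP in WT. With the closest pairs summed they were 1 and 2 for LT over MEP and CMP/GMP over MEP in D3aKO and 1 for LT over CMP/GMP in WT. The cause was not tested.

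Leaving out 1 library in turn gave 0 to 5 for D3aKO over WT in MEP (5 without D3aKO 1, where 2882 of 11880 genes were called). In c-kit+ cells it gave 0 to 1 (1 without DKO 3), and for the F-test 0 to 1. For LT over CMP/GMP, LT over MEP and CMP/GMP over MEP it gave 0 to 0, 1 to 5 and 2 to 8 in D3aKO and 0 to 2, 0 to 2 and 0 to 2 in WT. Pkm in D3aKO CMP/GMP over MEP was called in all 8 of these fits and under all 9 other alternatives. No called difference of a single gene changed sign, but medians of the 10 did. They were 0.09 for c-kit+ D3aKO over WT with a term for Xist (-0.24 without it), and, without the 5 libraries that stand apart, 0.31 for D3aKO over WT in MEP (-0.53 with them), -0.07 for D3aKO LT over MEP (0.69 with them) and 0.12 for WT LT over MEP (-0.07 with them). The last was also positive with RLE, DESeq2 and limma-voom and without LT WT 1 or MEP WT 1, and that of the interaction, 0.03, was negative with the block (-0.02), with the term for Xist (-0.11) and without DKO 2 or WT 2. A replicate block, for numbers that do not pair the samples, gave 0 for D3aKO over WT in LT, CMP/GMP, MEP and c-kit+ cells, 1, 2 and 6 for the population comparisons in D3aKO and 2, 2 and 2 in WT. Slc2a1 had counts of 0 in MEP D3aKO 2 (3.44 M reads) and MEP WT 1 (31.9 M reads), where levels under the limits given for a count of 0 cannot be seen.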
